A study of Mus musculus with 34 samples.

Results

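Oxidative phosphorylation in mammals is carried out by 5 membrane complexes of the mitochondrion, and the genes of their nuclear-encoded proteins were followed here through spinal cord injury. Members were all genes whose symbol in the array's probe annotation begins with Nduf (complex I), Uqcr (complex III), Cox4 to Cox8 (complex IV) or Atp5 (complex V), together with Sdha, Sdhb, Sdhc and Sdhd (complex II). This rule found 90 genes among the 18193 genes with a probe set of their own. Complex I gave 42 members, complex II 4, complex III 8, complex IV 19 and complex V 17. Each gene was represented by the probe set, a group of probes for one transcript, with the highest mean over all 34 arrays. Of the members, 85 exceeded a log2 signal of 4 on at least 4 arrays and were tested with 11993 genes in all. Cox4i2, Cox7b2, Cox8c, Ndufa4l2 and Ndufb4 did not reach that signal and were not tested.

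Complexes I and II take electrons from NADH and succinate, complex III passes them to cytochrome c, and complex IV, cytochrome c oxidase, passes them to oxygen. The protons that complexes I, III and IV move across the inner membrane drive complex V, the ATP synthase. Neurons depend on this pathway for most of the ATP that ion pumping needs, whereas activated phagocytes rely more on glycolysis. Several complex IV subunits have forms restricted to muscle or other tissues, and the c ring of complex V has 3 genes that encode the same mature protein.

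The tissue was mouse spinal cord, hybridised as biotinylated cRNA to 1-colour Affymetrix arrays. Wild-type mice (WT) were compared with mice null for trkB.T1 (KO), the truncated, kinase-lacking form of the BDNF receptor trkB that the gene Ntrk2 encodes. Sham mice had surgery with the cord left intact, and injured mice were sampled 1, 3 or 7 days after spinal cord injury (SCI). The groups held 4 WT sham, 5 WT day 1, 4 WT day 3, 4 WT day 7, 4 KO sham, 4 KO day 1, 5 KO day 3 and 4 KO day 7 arrays. Strain, age and sex are not given in the labels, and nor is whether arrays come from different animals. The p-values therefore measure the spread between these samples, which may be technical. By the labels KO mice lack trkB.T1 in every group, and the deletion is limited to no cell type. The array labelled KO sham replicate 2 did not show the large loss of the other KO arrays, as described next.

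Some arrays stood apart. Of 8 Ntrk2 probe sets, 2 were lower on 16 KO arrays than on every WT array. Those 16 KO arrays read 2.83 and 3.12 to 4.94, against 8.65 to 9.92 and 10.01 to 10.86 on the 17 WT arrays. KO sham replicate 2 stood apart from them, at 8.59 and 9.46, below the lowest WT array on both but far above the other KO arrays. It is called the array labelled KO sham replicate 2, and the member counts of KO cord and of the genotype comparisons, and some of its single genes, are also given without it. The mean of 20 skeletal muscle markers was between 4.09 and 8.77 on 31 arrays, and reached 9.53 on KO sham replicate 4, 9.79 on KO day 3 replicate 1 and 12.02 on KO day 3 replicate 3. Neuron and myelin markers, which check the labelled tissue, had mean log2 signals of 11.86 ± 0.03 and 12.21 ± 0.13 in WT sham cord (SD, n = 4).

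Transcripts of the respiratory chain and the ATP synthase were lower after injury at each time sampled and in both genotypes. In WT cord, 66 of the 85 tested members fell on day 1, 63 on day 3 and 70 on day 7 (limma, Benjamini-Hochberg adjusted p under 0.05). Over all tested genes 32.5%, 37.4% and 33.3% fell. In KO cord 52, 65 and 75 members fell, against 27.3%, 38.8% and 31.0% of all genes. The 3 comparisons of each genotype share its sham arrays. Few members rose: 2, 1 and 2 in WT cord and 2, 3 and 1 in KO cord, against 27.1%, 29.5%, 25.8%, 23.7%, 30.9% and 23.5% of all genes.

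The falls were moderate in size. The median difference from sham over the 85 members was -0.24, -0.32 and -0.31 (log2) in WT cord on days 1, 3 and 7, which put the median member at 84.9%, 80.2% and 80.4% of its sham signal. The KO medians were -0.19, -0.34 and -0.36, or 87.9%, 79.3% and 78.0% of sham. Over all tested genes the medians were -0.05, -0.06 and -0.06 in WT and -0.05, -0.06 and -0.06 in KO cord. Members below every sham array on all arrays of an injured group numbered 60, 62 and 69 in WT cord, against 29.3%, 32.6% and 33.0% of all genes. In KO cord they numbered 46, 59 and 75, against 30.9%, 33.7% and 35.8%.

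Many members lie high on the array's scale, whose highest value was 15.9: 48 had a mean log2 signal of at least 12. Of these, 43, 43 and 43 fell in WT cord and 34, 44 and 47 in KO cord. Among all 592 genes with a mean that high, 43.4%, 46.1% and 41.9% fell in WT cord and 37.8%, 50.3% and 42.2% in KO cord. Without the array labelled KO sham replicate 2, 45, 65 and 73 members fell in KO cord on days 1, 3 and 7. Without the 3 arrays of highest muscle signal, 44, 62 and 72 fell there. The calls of Sdhb and Cox6b1 on KO day 1 and of Atp5e and Ndufa7 on KO day 3 did not pass without the array labelled KO sham replicate 2.

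**Figure D1:**
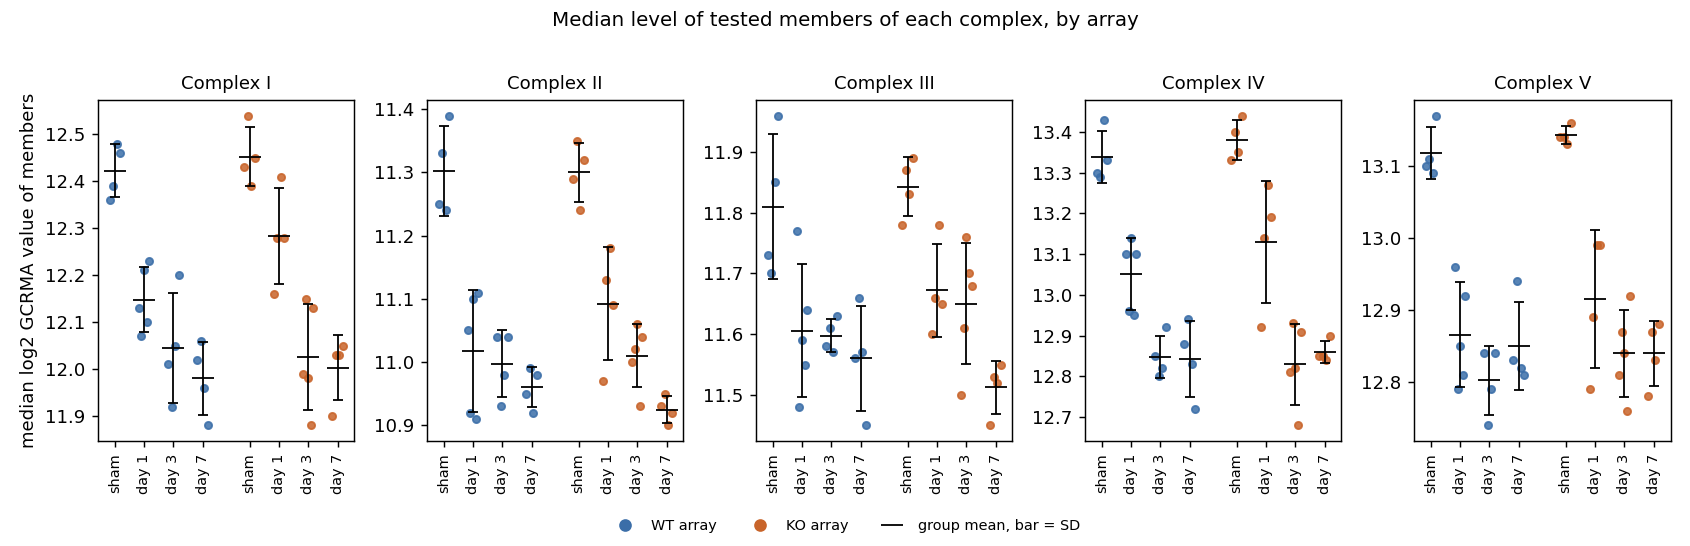
Median log2 signal of the tested members of each complex on each array, by time after injury, with WT and KO arrays drawn apart, group means as lines and SDs as bars. In every complex each injured group's mean lies below the sham mean of its genotype; for complex IV the WT means go from 13.34 in sham to 12.84 on day 7.

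All 5 complexes shared the direction. The median complex I member read 12.42 ± 0.05 in WT sham cord (SD, n = 4), 12.15 ± 0.07 on day 1 (n = 5), 12.04 ± 0.12 on day 3 (n = 4) and 11.98 ± 0.08 on day 7 (n = 4). In KO cord it read 12.45 ± 0.06, 12.28 ± 0.10 and 12.03 ± 0.11 in sham and on days 1 and 3 (n = 4, 4 and 5), and its 4 day 7 arrays lay between 11.90 and 12.05. For complex IV the values were 13.34 ± 0.06, 13.05 ± 0.09, 12.85 ± 0.05 and 12.84 ± 0.09 in WT cord. The ATP synthase median went from 13.12 ± 0.04 in WT sham cord to 12.87 ± 0.07, 12.80 ± 0.05 and 12.85 ± 0.06. Complex II read 11.30 ± 0.07 in WT sham cord, 11.02 ± 0.10 on day 1 and 10.96 ± 0.03 on day 7. Complex III read 11.81 ± 0.12, 11.61 ± 0.11, 11.60 ± 0.03 and 11.56 ± 0.09. These medians are over different probe sets, so their heights are not compared between complexes.

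**Figure D2:**
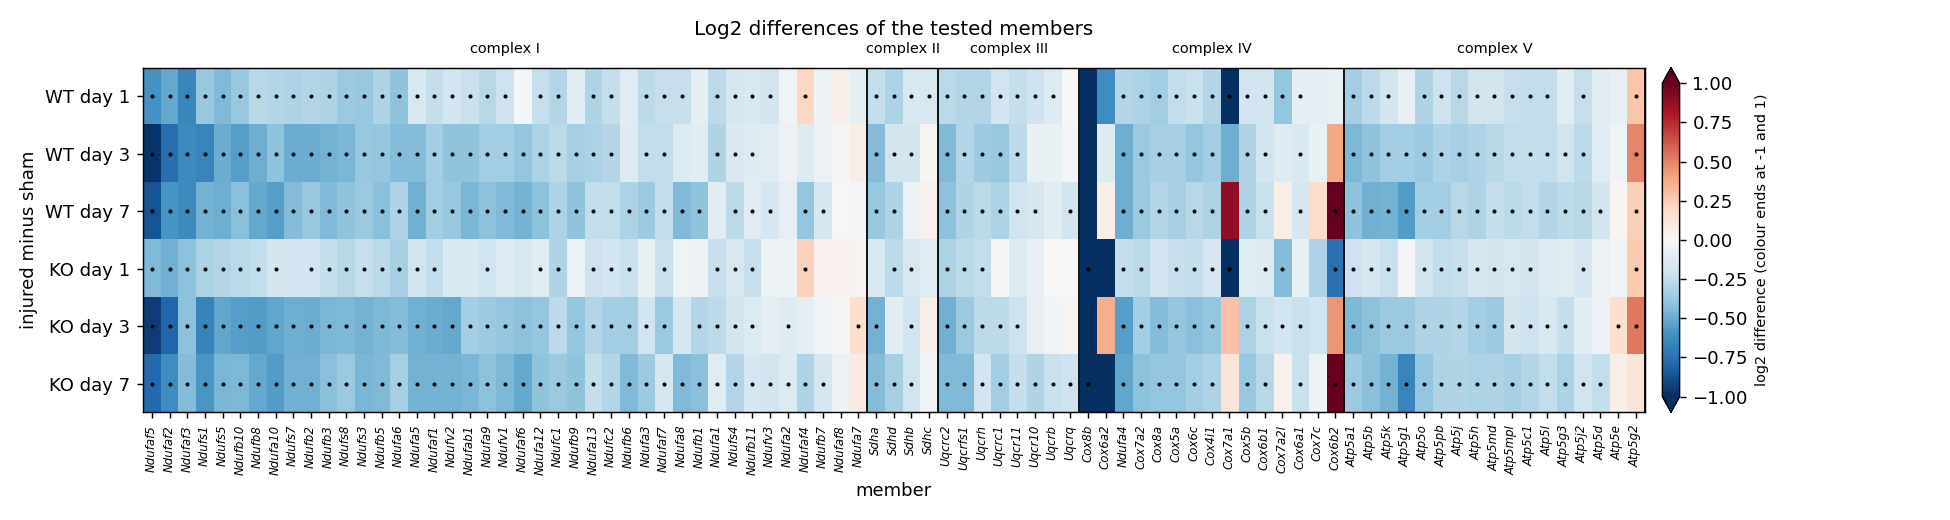
Log2 difference from sham of each tested member (columns, grouped by complex and sorted by mean difference) in the 6 injury comparisons (rows), with the colour scale ending at -1 and 1 and black dots where the limma adjusted p was under 0.05. Most columns are lower throughout; Atp5g2, Ndufaf4 at day 1 and Cox6b2 at day 7 stand out as higher.

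Markers of the cord's cell types were followed in the same comparisons. Of all tested genes, 32.5%, 37.4% and 33.3% fell in WT cord and 27.3%, 38.8% and 31.0% in KO cord. Those that rose were 27.1%, 29.5% and 25.8% in WT cord and 23.7%, 30.9% and 23.5% in KO cord. Of 21 neuronal markers, 14, 21 and 21 fell in WT cord and 5, 21 and 18 in KO cord, with KO day 1 not above the share of all genes. Their mean ranged from 11.83 to 11.89 in WT sham cord, from 11.11 to 11.54 on day 1, from 10.73 to 11.14 on day 3 and from 11.05 to 11.18 on day 7. Among KO arrays it ranged from 11.82 to 11.97 in sham, 11.32 to 11.65 on day 1, 10.06 to 11.23 on day 3 and 11.17 to 11.20 on day 7. Of 18 macrophage and phagocyte markers, 17, 18 and 18 rose in WT and 14, 18 and 18 in KO cord, with a mean of 6.79 ± 0.09 in WT sham and 11.82 ± 0.20 on WT day 7 (SD, n = 4 each). Of 14 myelin and oligodendrocyte markers, 8, 12 and 8 fell in WT and 8, 13 and 9 in KO cord. Of 12 homeostatic astrocyte markers, 9, 5 and 0 fell and 2, 2 and 3 rose in WT cord, and 8, 6 and 1 fell and 2, 2 and 4 rose in KO cord. The part of these changes in the members' values was not tested, and in whole tissue fewer cells of a type cannot be told apart from less RNA per cell.

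Complex I, the entry point for NADH, had 41 tested members: 6 core subunits, 27 accessory subunits and 8 assembly factors. The core subunits include those that carry the flavin and iron-sulphur clusters. In all, 32, 32 and 37 fell in WT cord and 26, 35 and 39 in KO cord. All 6 tested core subunits fell in WT cord at each time, with medians of -0.34, -0.43 and -0.42 on days 1, 3 and 7. In KO cord 3, 6 and 6 fell, with medians of -0.21, -0.48 and -0.47. Of the 27 accessory subunits, 21, 20 and 24 fell in WT and 18, 23 and 26 in KO cord.

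Ndufs1, the largest iron-sulphur subunit of complex I, showed the pattern on every array. It read 11.76, 11.67, 11.73 and 11.76 in WT sham cord, 11.37, 11.21, 11.43, 11.18 and 11.57 on day 1, 11.12, 10.88, 11.12 and 11.19 on day 3, and 11.29, 11.36, 11.19 and 11.21 on day 7. KO arrays read 11.68, 11.78, 11.62 and 11.75 in sham, 11.33, 11.47, 11.46 and 11.29 on day 1, 11.05, 11.13, 11.05, 10.75 and 11.19 on day 3, and 11.11, 11.12, 11.11 and 11.18 on day 7. Each injured array was below all sham arrays of its genotype, and the day 3 groups were lowest on average. The differences from sham were -0.38 ± 0.08, -0.66 ± 0.08 and -0.47 ± 0.08 (SE) in WT cord on days 1, 3 and 7 (limma adjusted p = 0.000201, 1.27e-07 and 2.73e-05). In KO cord they were -0.32 ± 0.08, -0.67 ± 0.08 and -0.58 ± 0.08 (adjusted p = 0.00232, 2.25e-08 and 1.7e-06). Without the array labelled KO sham replicate 2 the KO differences were -0.30, -0.65 and -0.55. On day 3 the Ndufs1 signal was 63.4% of sham in WT and 62.7% in KO cord.

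Other catalytic and membrane-arm subunits also fell. Ndufv1, which binds NADH and the flavin, read 12.36, 12.39, 12.48 and 12.46 in WT sham cord and 12.34, 12.07, 12.25, 12.14 and 12.25 on day 1, a difference of -0.21 ± 0.07 (limma adjusted p = 0.00719). On that day the KO difference of Ndufv1 was -0.13 ± 0.07 and did not pass (adjusted p = 0.127; -0.26 to 0.01 at 2 SE either side). It then fell in KO cord by 0.39 on day 3 and by 0.45 on day 7. Ndufs3, another core subunit, differed by -0.38, -0.38 and -0.37 in WT and -0.23, -0.47 and -0.46 in KO cord, each past the threshold. Ndufb8, an accessory subunit of the membrane arm, differed by -0.28, -0.49 and -0.51 in WT and -0.25, -0.56 and -0.51 in KO cord.

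The assembly factors, which build complex I and are not part of the finished enzyme, held both the largest falls of the complex I members and a gene that rose early. Of 8 tested, 5, 6 and 7 fell in WT cord and 5, 6 and 7 in KO cord, and 1 rose on day 1 in each genotype. Ndufaf5, which modifies the core subunit Ndufs7, read 9.49, 9.39, 9.56 and 9.69 in WT sham cord, 8.88, 8.92, 9.15, 8.79 and 8.95 on day 1, 8.50, 8.23, 8.67 and 8.83 on day 3, and 8.72, 8.90, 8.58 and 8.51 on day 7. In KO cord Ndufaf5 read 9.47, 9.46, 9.51 and 9.53 in sham, 8.76, 9.12, 9.37 and 8.96 on day 1, 8.57, 8.74, 8.27, 8.39 and 8.80 on day 3, and 8.56, 8.75, 8.76 and 8.80 on day 7. No injured array reached the sham range of its genotype. The differences of Ndufaf5 were -0.60 ± 0.12, -0.98 ± 0.13 and -0.86 ± 0.13 in WT cord (limma adjusted p = 0.000126, 1.7e-07 and 1.83e-06). In KO cord they were -0.44 ± 0.13, -0.94 ± 0.12 and -0.78 ± 0.13 (adjusted p = 0.00471, 8.82e-08 and 9.24e-06). Without the array labelled KO sham replicate 2, Ndufaf5 differed by -0.95 on KO day 3 and -0.79 on KO day 7. On day 3 its signal was 50.8% of sham in WT and 52.2% in KO cord.

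Ndufaf2, a chaperone of late complex I assembly, also fell at every time. It read 10.58, 10.52, 10.53 and 10.56 in WT sham cord and 9.78, 9.49, 10.01 and 9.89 on WT day 3, a difference of -0.76 ± 0.11 (limma adjusted p = 1.16e-06). KO sham arrays read 10.46, 10.64, 10.65 and 10.49 and KO day 3 arrays 9.64, 9.83, 9.52, 9.76 and 10.11, a difference of -0.79 ± 0.10 (adjusted p = 1.64e-07). The sham and day 3 groups of Ndufaf2 did not overlap in either genotype. Ndufaf3, which acts in early assembly, differed by -0.65 ± 0.12, -0.64 ± 0.13 and -0.64 ± 0.13 in WT cord and by -0.41 ± 0.13, -0.41 ± 0.12 and -0.43 ± 0.13 in KO cord, again with no overlap.

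Ndufaf4, an early assembly factor, took another course. It read 9.94, 9.98, 9.87 and 9.75 in WT sham cord, 10.18, 10.04, 10.14, 10.10 and 10.01 on day 1, 9.71, 9.93, 9.63 and 9.72 on day 3, and 9.50, 9.66, 9.57 and 9.26 on day 7. KO arrays read 9.75, 9.96, 9.74 and 9.83 in sham, 10.04, 9.98, 10.07 and 10.13 on day 1, 9.57, 9.64, 10.09, 9.69 and 9.67 on day 3, and 9.46, 9.53, 9.52 and 9.54 on day 7. All day 1 arrays lay above, and all day 7 arrays below, the sham arrays of their genotype, while the day 3 groups overlapped sham. Ndufaf4 rose by 0.21 ± 0.08 on WT day 1 and by 0.23 ± 0.09 on KO day 1 (limma adjusted p = 0.0327 and 0.0303). It fell by 0.39 on WT day 7 and by 0.31 on KO day 7 (adjusted p = 0.000526 and 0.00481). A lower Ndufaf4 probe set did not show the rise: it differed by 0.03 ± 0.16 on WT day 1 and -0.22 ± 0.17 on KO day 1 (adjusted p = 0.883 and 0.281). With arrays centred on their medians the adjusted p of the rise was 0.0539 in WT and 0.0520 in KO cord.

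**Figure D3:**
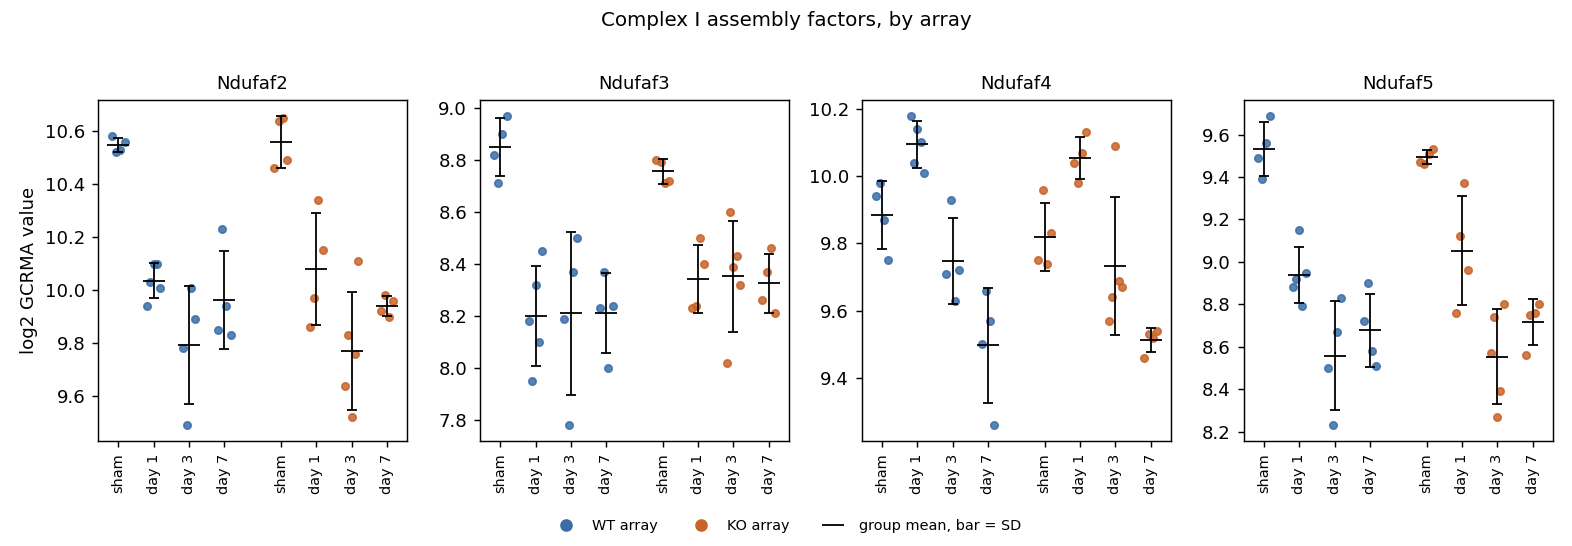
Log2 signal of 4 complex I assembly factors on each array by time after injury, with WT and KO arrays drawn apart, group means as lines and SDs as bars. Ndufaf5 and Ndufaf2 drop below sham from day 1 on, and Ndufaf4 is above sham on day 1 and below it on day 7.

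Complex II, succinate dehydrogenase, joins the TCA cycle to the chain, and 4, 3 and 2 of its 4 subunits fell in WT cord and 2, 2 and 3 in KO cord. Sdha, its flavoprotein, differed by -0.24, -0.43 and -0.38 in WT cord and by -0.15, -0.47 and -0.43 in KO cord. The day 1 value in KO cord did not pass (limma adjusted p = 0.0717), and the day 3 values had adjusted p = 3.85e-06 in WT and 2.59e-07 in KO cord. Sdhb, the iron-sulphur subunit, differed by -0.15, -0.18 and -0.06 in WT cord and -0.16, -0.20 and -0.20 in KO cord, with WT day 7 short of the threshold (adjusted p = 0.361). Sdhc, a membrane anchor, differed by -0.16 on WT day 1 (adjusted p = 0.00704), by 0.02 on WT day 3 (-0.09 to 0.12) and by 0.04 on WT day 7 (-0.07 to 0.14). In KO cord Sdhc differed by -0.12, 0.07 and -0.04, none past the threshold.

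Complex III, the cytochrome bc1 complex, had 7, 5 and 7 of its 8 members lower in WT cord and 3, 5 and 8 in KO cord. Its 3 tested core members, Uqcrc1, Uqcrc2 and Uqcrfs1, fell at each time in WT cord. In KO cord 2, 3 and 3 fell. Uqcrfs1, the Rieske iron-sulphur protein, differed by -0.29, -0.29 and -0.30 in WT and -0.27, -0.37 and -0.44 in KO cord. Uqcrc1, a core scaffold subunit, differed by -0.19 ± 0.06, -0.38 ± 0.06 and -0.32 ± 0.06 in WT cord. On KO day 1 it differed by -0.01 ± 0.06 (limma adjusted p = 0.923; -0.12 to 0.11), and later by -0.26 and -0.35. Uqcrb, the ubiquinone-binding subunit, fell on WT day 1 by 0.14 (adjusted p = 0.0126) and on KO day 7 by 0.22 (adjusted p = 0.00055), and passed in no other injury comparison.

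Complex IV, the terminal oxidase, has subunits in general forms found in most tissues and in restricted forms. Ndufa4, now counted as a complex IV subunit, was placed here. Of the 11 general forms, 10, 9 and 9 fell in WT cord and 7, 10 and 9 in KO cord. Their median differences were -0.25, -0.33 and -0.29 in WT and -0.23, -0.34 and -0.34 in KO cord. Of the 4 tested restricted forms, 1, 0 and 0 fell in WT and 3, 0 and 1 in KO cord. Cox4i1, the general form of subunit 4, read 14.18 ± 0.06 in WT sham cord (SD, n = 4) and differed by -0.29 ± 0.05, -0.35 ± 0.06 and -0.32 ± 0.06. In KO cord it differed by -0.17 ± 0.06, -0.39 ± 0.05 and -0.31 ± 0.06 (limma adjusted p = 0.0148 on day 1). Cox5a differed by -0.25, -0.33 and -0.33 in WT and -0.23, -0.39 and -0.39 in KO cord, and Cox6c by -0.22, -0.39 and -0.28 in WT and -0.24, -0.42 and -0.34 in KO cord.

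Other general forms have a restricted counterpart too. Cox7a2 differed by -0.32, -0.37 and -0.37 in WT cord and by -0.27, -0.34 and -0.41 in KO cord. Cox8a differed by -0.35, -0.33 and -0.29 in WT cord and by -0.19, -0.43 and -0.39 in KO cord, where day 1 did not pass (limma adjusted p = 0.122). Cox6b1 differed by -0.18, -0.19 and -0.22 in WT cord and by -0.13, -0.22 and -0.28 in KO cord. Cox6a1 differed by -0.10, -0.15 and -0.17 in WT cord and by -0.07, -0.22 and -0.22 in KO cord, with adjusted p = 0.0484 on WT day 1 and 0.162 on KO day 1.

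Cox7a2l, a relative of Cox7a2 known for joining complexes III and IV into supercomplexes, fell early and then returned. It read 11.44, 11.41, 11.48 and 11.57 in WT sham cord, 11.14, 11.04, 11.14, 10.99 and 11.10 on day 1, 11.34, 11.46, 11.27 and 11.31 on day 3, and 11.53, 11.54, 11.54 and 11.54 on day 7. KO arrays read 11.62, 11.52, 11.39 and 11.55 in sham, 10.98, 11.06, 11.12 and 11.17 on day 1, 11.37, 11.43, 11.18, 11.31 and 11.38 on day 3, and 11.61, 11.58, 11.55 and 11.50 on day 7. The day 1 arrays of both genotypes lay below all their sham arrays, and the day 7 arrays lay within the sham range. Cox7a2l fell by 0.39 on WT day 1 and by 0.43 on KO day 1 (limma adjusted p = 1.34e-06 and 7.06e-07). On day 7 it differed by 0.06 ± 0.06 in WT and 0.04 ± 0.06 in KO cord (adjusted p = 0.374 and 0.601).

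Cox7a1, the form of subunit 7a found mainly in heart and skeletal muscle, was also low on day 1. It read 7.25, 7.45, 7.31 and 7.61 in WT sham cord, 6.15, 6.61, 5.86, 6.38 and 6.01 on day 1, 7.57, 5.36, 7.23 and 7.48 on day 3, and 8.04, 8.30, 8.78 and 8.07 on day 7. Its KO values were 7.26, 7.36, 7.60 and 8.17 in sham, 6.15, 6.04, 6.58 and 6.20 on day 1, 7.78, 7.43, 9.81, 7.20 and 7.21 on day 3, and 7.75, 7.77, 7.52 and 7.83 on day 7. Day 1 and sham did not overlap in either genotype, and the WT day 7 arrays all lay above WT sham. Cox7a1 fell by 1.20 on WT day 1 and by 1.36 on KO day 1 (limma adjusted p = 0.00982 and 0.00782), to 43.5% and 39.1% of sham. The WT day 7 difference was 0.89 ± 0.41 and did not pass (adjusted p = 0.0633). With the muscle marker mean as a covariate the day 1 difference was -0.98 in WT cord (adjusted p = 0.00566) and -0.58 in KO cord (adjusted p = 0.164).

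Cox8b and Cox6a2, both forms of striated muscle, varied widely between the arrays of some groups. In WT cord Cox8b read 4.21, 6.23, 3.07 and 6.21 in sham, 2.44, 4.27, 2.45, 2.47 and 2.45 on day 1, 3.28, 2.36, 2.48 and 3.52 on day 3, and 2.48, 3.70, 5.88 and 2.78 on day 7. In KO cord Cox8b read 5.33, 5.98, 6.34 and 8.17 in sham, 2.46, 2.84, 2.48 and 2.69 on day 1, 7.25, 2.47, 10.57, 2.45 and 2.42 on day 3, and 2.55, 2.43, 2.47 and 2.48 on day 7. The KO sham arrays were above every KO day 1 and day 7 array, and KO day 3 replicates 1 and 3 were the highest injured arrays. Cox8b fell by 3.84 on KO day 1 and by 3.97 on KO day 7 (limma adjusted p = 0.00821 and 0.00561). With values under 4 set to 4 it fell by 2.46 in both. Without the 3 arrays of highest muscle signal it fell by 3.27 and by 3.40, and without the array labelled KO sham replicate 2 both calls held (adjusted p = 0.0137 and 0.00981). With the muscle marker mean as a covariate the Cox8b differences were -0.79 on day 1 and -0.89 on day 7 (adjusted p = 0.153 and 0.102). Muscle markers moved in the same comparisons: 15 and 16 of 20 fell on KO days 1 and 7, against 27.3% and 31.0% of all genes. The mean of these markers ranged from 7.01 to 9.53 in KO sham, 4.23 to 6.22 on KO day 1 and 4.57 to 5.38 on KO day 7.

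Cox6a2 read 4.40, 4.92, 5.84 and 7.94 in KO sham cord and 3.85, 3.71, 3.71 and 3.68 on KO day 1, a difference of -2.04 ± 1.06 that did not pass (limma adjusted p = 0.107). On KO day 3 it read 8.15, 3.58, 11.12, 4.15 and 3.71, with the high values on replicates 1 and 3. Those are the 2 injured arrays with the highest muscle marker means. No injury comparison called Cox6a2.

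**Figure D4:**
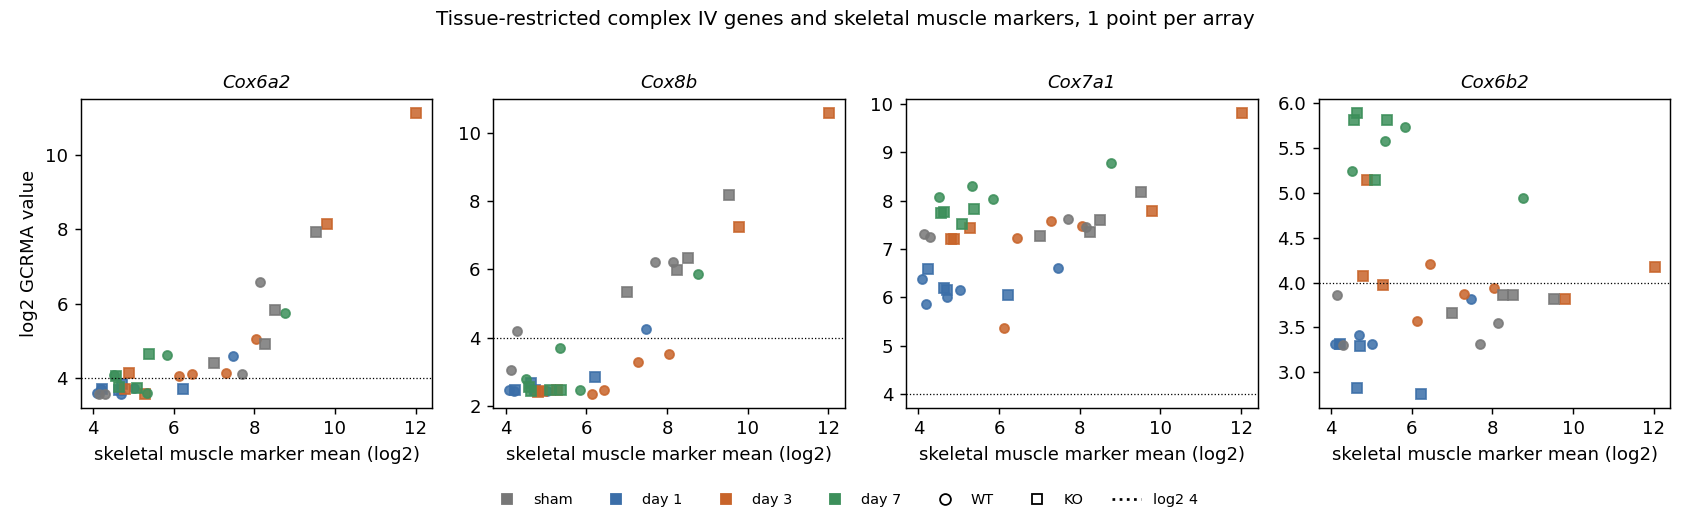
Log2 signal of restricted complex IV forms against the mean of 20 skeletal muscle markers on each array, circles for WT and squares for KO, coloured by time, with the filter limit of log2 4 dotted. Cox8b and Cox6a2 are both highest on KO day 3 replicate 3, which has the highest muscle mean, 12.02, whereas the highest Cox6b2 values, 5.25 to 5.89, are on day 7 arrays with muscle means under 6.

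Cox6b2, the testis form of subunit 6b, rose late from a signal under the filter limit of 4. In WT cord it read 3.31, 3.55, 3.86 and 3.32 in sham, 3.32, 3.82, 3.32, 3.32 and 3.42 on day 1, 3.87, 3.57, 4.21 and 3.94 on day 3, and 5.74, 5.58, 4.95 and 5.25 on day 7. Its KO values were 3.66, 3.86, 3.86 and 3.82 in sham, 3.29, 2.76, 3.32 and 2.82 on day 1, 3.82, 3.97, 4.17, 5.15 and 4.07 on day 3, and 5.82, 5.89, 5.14 and 5.82 on day 7. Every day 7 array was above 4 and above all sham arrays, whereas all sham arrays were under 4. Cox6b2 rose by 1.87 ± 0.22 in both genotypes on day 7 (limma adjusted p = 5.19e-08 in WT and 6.1e-08 in KO cord). With values under 4 set to 4 the rise was 1.38 in WT and 1.67 in KO cord, and without the array labelled KO sham replicate 2 the KO rise was 1.89. The fall called on KO day 1, -0.75 ± 0.22 (adjusted p = 0.00628), lay wholly under 4 and became 0.00 with that floor. The general form Cox6b1 fell on day 7 by 0.22 in WT and by 0.28 in KO cord.

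Complex V, the ATP synthase, had 12, 14 and 15 of its 17 members lower in WT cord and 11, 13 and 15 in KO cord. All 4 genes of the peripheral stalk, which holds the catalytic head still, fell in each of the 6 injury comparisons. Of 5 genes of the F1 head, 3, 3 and 4 fell in WT and 3, 3 and 4 in KO cord. The catalytic beta subunit Atp5b read 13.85, 13.83, 13.79 and 13.82 in WT sham cord and 13.34, 13.43, 13.30 and 13.28 on WT day 7, with no overlap. It differed by -0.26 ± 0.05, -0.40 ± 0.05 and -0.48 ± 0.05 in WT cord (limma adjusted p = 6.13e-09 on day 7) and by -0.17, -0.41 and -0.42 in KO cord. The alpha subunit Atp5a1 differed by -0.34, -0.45 and -0.40 in WT and by -0.21, -0.45 and -0.36 in KO cord. Atp5c1, the gamma subunit, fell by 0.25 on WT day 7, whereas another of its probe sets rose by 0.48 ± 0.12 (adjusted p = 0.00127). No other called member had a second probe set that was called in the opposite direction.

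The c ring, the rotor through which protons pass, was split between its 3 genes. Its bases are shown because genes for one and the same protein moved in different directions. The lines give the 250 bases before each start in the RefSeq promoter table (GRCm38.p6), 5′ to 3′ on the minus strand that all 3 genes lie on, with capitals for motif matches.
Atp5g1: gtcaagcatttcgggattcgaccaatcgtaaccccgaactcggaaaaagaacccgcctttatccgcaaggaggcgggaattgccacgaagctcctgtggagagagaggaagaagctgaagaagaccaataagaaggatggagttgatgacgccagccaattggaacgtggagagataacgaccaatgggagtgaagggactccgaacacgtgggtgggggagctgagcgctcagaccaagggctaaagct
Atp5g2: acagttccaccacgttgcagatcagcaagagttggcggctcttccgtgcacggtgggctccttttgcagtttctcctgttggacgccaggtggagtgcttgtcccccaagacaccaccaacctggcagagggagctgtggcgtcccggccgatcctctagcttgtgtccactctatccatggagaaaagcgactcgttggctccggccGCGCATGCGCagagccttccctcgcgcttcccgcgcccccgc
Atp5g3: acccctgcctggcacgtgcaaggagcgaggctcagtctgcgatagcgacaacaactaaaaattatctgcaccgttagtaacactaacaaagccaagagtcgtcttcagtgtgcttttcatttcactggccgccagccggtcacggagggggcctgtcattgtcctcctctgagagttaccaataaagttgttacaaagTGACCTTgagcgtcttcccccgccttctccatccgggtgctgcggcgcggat
The Atp5g1 window is chr11:96075632-96075881, the Atp5g2 window chr15:102671048-102671297 and the Atp5g3 window chr2:73911327-73911576. Their GC content was 53.6%, 62.8% and 54%. Capitals in Atp5g2 mark a match to the NRF1 motif in its palindromic form, whose first base is 42 bases before the start. Capitals in Atp5g3 mark TGACCTT, the reverse complement of the ERR motif AAGGTCA, 52 bases before the start. Atp5g3 also has an NRF1 match, which begins at base 13 from the start and so lies outside the printed stretch. The printed Atp5g1 stretch holds no match to a motif searched.

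Atp5g2 rose. It read 10.46, 10.52, 10.63 and 10.84 in WT sham cord, 11.10, 10.85, 10.74, 10.92 and 10.83 on day 1, 11.19, 11.14, 11.06 and 11.02 on day 3, and 10.89, 10.83, 10.79 and 10.89 on day 7. Its KO values were 10.59, 10.67, 10.66 and 10.64 in sham, 10.91, 10.86, 10.95 and 10.88 on day 1, 11.05, 11.03, 11.32, 11.44 and 10.99 on day 3, and 10.67, 10.78, 10.74 and 10.85 on day 7. The day 3 arrays of both genotypes lay above all sham arrays, and on WT days 1 and 7 the groups overlapped. Atp5g2 rose by 0.28 ± 0.08, 0.49 ± 0.09 and 0.24 ± 0.09 in WT cord (limma adjusted p = 0.00539, 1.8e-05 and 0.0197). The KO rises were 0.26 ± 0.09 and 0.53 ± 0.08 on days 1 and 3 (adjusted p = 0.0139 and 2.2e-06). On KO day 7 it differed by 0.12 ± 0.09 (adjusted p = 0.246; -0.05 to 0.29). The other 2 probe sets of Atp5g2 were above 4 on 0 arrays, and averaging all 3 ended the call on days 1 and 7 in WT cord and day 1 in KO cord (0.06, 0.08 and 0.09).

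Atp5g1 fell later. In WT cord it read 11.46, 11.48, 11.56 and 11.58 in sham, 11.47, 11.31, 11.50, 11.40 and 11.50 on day 1, 11.20, 11.18, 11.16 and 11.17 on day 3, and 10.93, 11.03, 10.83 and 11.07 on day 7. Its KO values were 11.43, 11.64, 11.58 and 11.69 in sham, 11.45, 11.51, 11.72 and 11.59 on day 1, 11.09, 11.18, 11.51, 11.19 and 11.12 on day 3, and 10.83, 10.93, 10.91 and 11.04 on day 7. Day 1 overlapped sham in both genotypes, and the day 7 arrays were below all sham arrays. Atp5g1 differed by -0.08 ± 0.07, -0.34 ± 0.08 and -0.56 ± 0.08 in WT cord (limma adjusted p = 0.337, 0.000348 and 7.37e-07). The KO differences were -0.02 ± 0.08, -0.37 ± 0.07 and -0.66 ± 0.08 (adjusted p = 0.887, 7.16e-05 and 5.49e-08). A second Atp5g1 probe set was above 4 on 9 of 34 arrays, so no size is given for it. Without the array labelled KO sham replicate 2, Atp5g1 fell by 0.35 on KO day 3 and by 0.64 on KO day 7.

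Atp5g3 read 13.81 ± 0.04 in WT sham cord (SD, n = 4) and differed by -0.11, -0.20 and -0.26 on days 1, 3 and 7 (limma adjusted p = 0.0674, 0.00216 and 0.000138). In KO cord it differed by -0.12, -0.24 and -0.32, with day 1 short of the threshold (adjusted p = 0.0562). The 3 genes were each compared with their own sham signal, and their levels were not set against each other.

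**Figure D5:**
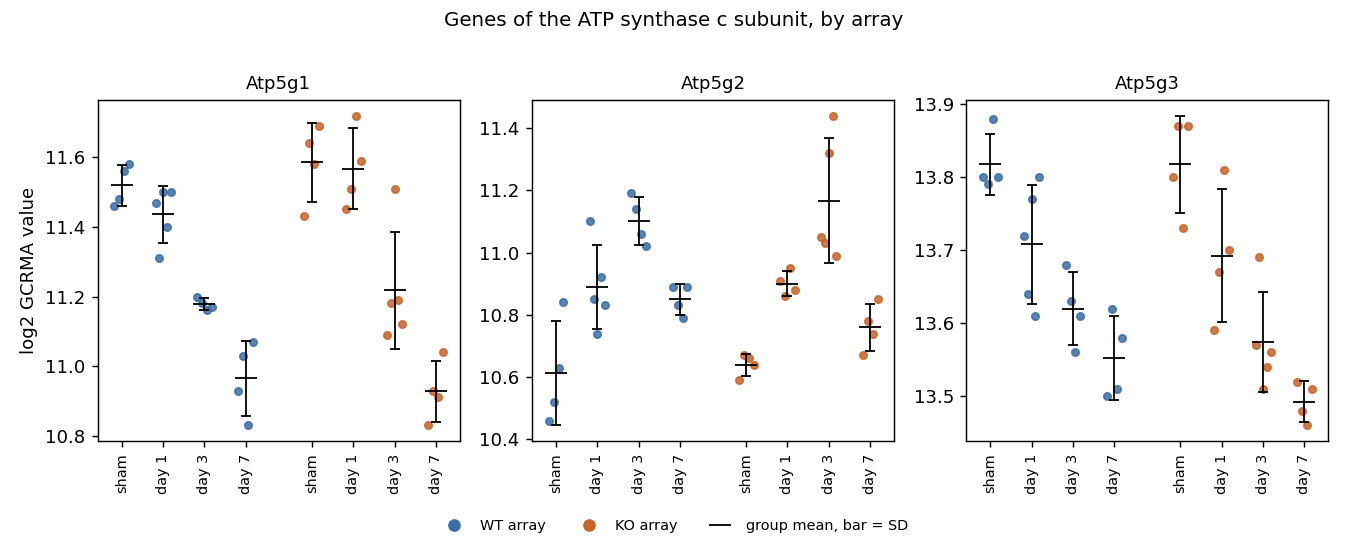
Log2 signal of Atp5g1, Atp5g2 and Atp5g3 on each array by time after injury, WT and KO drawn apart, group means as lines and SDs as bars. Atp5g2 is highest on day 3, where its arrays lie between 10.99 and 11.44, while Atp5g1 is lowest on day 7, between 10.83 and 11.07.

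Motifs were searched on both strands in RefSeq promoters of 300 bases around each start, which the table held for 74 of the 90 members. NRF1, GABP and YY1 are nuclear factors and ERR receptors are nuclear receptors known to drive respiratory chain genes. The NRF1 motif, GCGCA followed by any base and then GCGC, was in 17 members, or 23%, against 5.19% of the promoters of 27025 genes. Its palindromic form, with T as that base and counted in the first motif too, was in 6 members, or 8.11% against 1.07%: Atp5g2, Atp5k, Cox6a1, Ndufaf4, Ndufaf5 and Uqcrc1. On WT day 1 Atp5g2 and Ndufaf4 rose, and Atp5k, Cox6a1, Ndufaf5 and Uqcrc1 fell. On KO day 1 Atp5g2 and Ndufaf4 rose, and Atp5k and Ndufaf5 fell. There Cox6a1, at -0.07, and Uqcrc1, at -0.01, did not pass (limma adjusted p = 0.162 and 0.923). The GABP motif CCGGAAG was in 25.7% of members against 9.93%, and the YY1 motif AAGATGGC in 13.5% against 3.19%. The ERR motif AAGGTCA was in 10.8% against 5.38%, and the TATA box TATAAA in 10.8% against 15.7%. A match is a string of letters and shows no binding.

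Between days 1 and 3, with both genotypes averaged, 40 members fell and 8 rose, against 34.3% and 26.1% of all genes. The median difference was -0.10 over members and -0.05 over all genes. Complex I had 24 of its 41 members among the falls, including 6 of 6 core subunits. Those lowest were Ndufaf5, at -0.44 ± 0.08, Ndufaf4, at -0.33 ± 0.06, and Ndufs1, at -0.32 ± 0.06. Cox7a1 rose by 1.18 ± 0.28, Cox6b2 by 0.83 ± 0.15 and Cox7a2l by 0.25 ± 0.04. The Cox6b2 value became 0.17 with values under 4 set to 4 and no longer passed (limma adjusted p = 0.238).

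Between days 3 and 7 there was less movement: 14 members fell and 5 rose, against 21.3% and 24.8% of all genes. The median was -0.02 over members and 0.03 over all genes. Atp5g2 fell by 0.33, Ndufa8, an accessory subunit of complex I, by 0.28 and Atp5g1 by 0.25. Cox6b2 rose by 1.46 ± 0.15 (limma adjusted p = 1.43e-08), Cox7a2l by 0.21 ± 0.04 and Ndufa1, an accessory subunit of the membrane arm, by 0.16 ± 0.04. For Atp5g1, averaging in the second probe set, which was above 4 on 9 arrays, gave 0.02 in place of the fall.

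The genotype comparison addresses whether loss of trkB.T1 changes these transcripts. No member passed between KO and WT cord in sham or on days 1, 3 or 7 (limma, 0 of 85 each), when 0.0667%, 0.859%, 0.0334% and 0.0334% of all genes passed. At an unadjusted p under 0.05 there were 2, 13, 3 and 1 members, and 492, 1163, 1382 and 576 of all 11993 genes. The median KO minus WT difference over members was 0.02, 0.07, 0.02 and 0.00, with a median SE of 0.06. On day 1, 10 of 85 members, or 11.8%, and 44.9% of all genes were lower in KO than in WT cord, irrespective of the test. The members were read on the same arrays, so their directions are not separate observations. The smallest p on day 1 was that of Ndufs3, at 0.20 ± 0.07 (adjusted p = 0.197; 0.07 to 0.34), followed by Uqcrb, at 0.15 ± 0.05 (adjusted p = 0.211). Without WT day 1 replicate 5, Ndufs3 passed, and without the array labelled KO sham replicate 2 no member passed in sham cord. On day 3 it was Atp5e, the epsilon subunit of the F1 head, at 0.19 ± 0.07 (adjusted p = 0.349), and Sdhc, at 0.13 ± 0.05 (adjusted p = 0.351). In sham cord Ndufb6 differed by 0.20 ± 0.09 and Ndufa2 by 0.10 ± 0.05, and on day 7 Uqcrb by -0.11 ± 0.05 and Sdhb by -0.11 ± 0.06, all with adjusted p = 1.

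The injury response itself was compared between genotypes as an interaction. No member passed on day 1, 3 or 7 (limma, 0 of 85 each), against 0.142%, 0.0% and 0.00834% of all genes. At an unadjusted p under 0.05 there were 3, 1 and 0 members, and 760, 839 and 395 of all 11993 genes. Without the array labelled KO sham replicate 2 the count that passed was also 0 on each day. Medians were 0.05, -0.01 and -0.03. Uqcrc1 had the smallest p on day 1, at 0.19 ± 0.08 (adjusted p = 0.679), then Cox6b2, whose sham and day 1 values all lie under 4, so that its difference of -0.68 ± 0.31 (adjusted p = 0.728) becomes 0 with values under 4 set to 4. On day 3 these were Atp5e, at 0.20 ± 0.10, and Atp5j2, a membrane subunit of complex V, at 0.15 ± 0.08 (adjusted p = 0.714 and 0.729). On day 7 they were Sdhb, at -0.14 ± 0.08, and Cox8b, at -2.76 ± 1.66 (adjusted p = 1 for both).

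WT and KO arrays of one day share no sample, so their lists can be set side by side. On day 1, 49 members fell in both genotypes, 74.2% of those in WT and 94.2% of those in KO cord. On day 3, 61 did, 96.8% and 93.8%. On day 7, 70 did, which was every member that fell in WT cord and 93.3% of those in KO cord. Most tested members were in each list of falls, so large shares follow in part from the length of the lists. The overlap over all tested genes was not counted. Atp5g2 and Ndufaf4 rose in both on day 1, Atp5g2 on day 3 and Cox6b2 on day 7. Atp5e and Ndufa7, an accessory subunit of complex I, rose in KO cord on day 3, by 0.17 ± 0.07 and 0.16 ± 0.07 (limma adjusted p = 0.0279 and 0.0414), with arrays that overlapped sham.

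Neighbouring pathways of the mitochondrion were followed with lists of their own. Over all tested genes 32.5%, 37.4% and 33.3% fell in WT cord and 27.3%, 38.8% and 31.0% in KO cord. Rises took 27.1%, 29.5% and 25.8% of all genes in WT cord and 23.7%, 30.9% and 23.5% in KO cord. Of 17 TCA cycle and pyruvate dehydrogenase genes, 9, 13 and 15 fell in WT cord and 10, 13 and 14 in KO cord, and 2, 1 and 2 and then 0, 2 and 2 rose. Dlat, the E2 subunit of pyruvate dehydrogenase, fell by 1.25 on WT day 3 and by 1.20 on KO day 3. Sucla2, which with Suclg1 forms the ADP-using succinyl-CoA ligase, fell by 0.56 and by 0.65 on those days. Suclg2, the GTP-side counterpart of Sucla2, rose by 0.49 ± 0.08 and 0.43 ± 0.07 there. Of 6 electron carrier and related genes outside the rule, 2, 3 and 3 fell in WT and 1, 3 and 3 in KO cord, and 0, 2 and 1 and 0, 3 and 1 rose. Cyc1, the cytochrome c1 of complex III, differed by -0.31, -0.52 and -0.49 in WT and -0.14, -0.40 and -0.52 in KO cord. Atpif1, an inhibitor of the ATP synthase, fell by 0.43 on WT day 3 and by 0.47 on KO day 3.

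Of 29 other assembly factors of the complexes, 9, 16 and 16 fell in WT and 4, 13 and 16 in KO cord, and 2, 4 and 2 and 3, 6 and 2 rose. The falls were 31.0% and 55.2% of the list on WT days 1 and 3, against 32.5% and 37.4% of all genes. On KO day 1 the 4 falls were below the 27.3% of all genes. Atpaf1, an assembly factor of the F1 head, fell by 0.96 on WT day 3 and by 1.38 on KO day 3. Nubpl, which delivers iron-sulphur clusters to complex I, rose by 0.86 ± 0.12 and 1.05 ± 0.12 on those days. Cox11, a copper chaperone of complex IV, fell by 0.50 and by 0.76. Of 16 import and outer membrane genes, 3, 6 and 11 fell in WT and 4, 8 and 12 in KO cord, and 5, 1 and 1 and 5, 0 and 0 rose. The import falls were 18.8% and 37.5% of the list on WT days 1 and 3, against 32.5% and 37.4% of all genes. On WT day 7, 33.3% of all genes fell. Slc25a4, an ADP/ATP carrier, fell by 0.65 on WT day 3 and by 0.63 on KO day 3, and Tomm70a, an import receptor, by 0.87 and 0.97. Timm17a, part of the inner membrane import channel, fell by 0.45 on WT day 7 and by 0.48 on KO day 7.

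Among 17 regulators of mitochondrial biogenesis, 4, 6 and 8 fell in WT and 5, 7 and 6 in KO cord, and 4, 3 and 3 and 3, 6 and 3 rose. The falls were 23.5% and 35.3% of the list on WT days 1 and 3, against 32.5% and 37.4% of all genes. On WT day 7, 33.3% of all genes fell. Ppargc1a and Ppargc1b encode the coactivators PGC-1alpha and PGC-1beta. Ppargc1a differed by -0.89, -1.0 and -0.74 in WT and -0.72, -1.24 and -0.76 in KO cord, each past the threshold. Ppargc1b differed by -0.76, -1.12 and -0.97 in WT and -0.60, -1.18 and -0.91 in KO cord. Ssbp1, the binding protein of single-stranded mitochondrial DNA, rose by 0.46, 0.63 and 0.46 in WT and by 0.38, 0.59 and 0.30 in KO cord. Whether the coactivators' levels bear on the members was not tested.

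Of 17 glycolytic genes, 5, 3 and 3 rose in WT and 4, 3 and 3 in KO cord, while 6, 9 and 9 and 3, 7 and 10 fell. Hk2, the inducible hexokinase, rose by 2.65, 3.23 and 3.46 in WT and by 1.74, 3.09 and 2.48 in KO cord. Ldha, the lactate dehydrogenase subunit that favours lactate, rose by 1.27, 1.55 and 0.92 in WT and by 1.12, 1.77 and 0.84 in KO cord. Slc2a1, a glucose transporter, rose by 0.82, 1.12 and 0.37 in WT and by 0.74, 0.80 and 0.35 in KO cord. The glycolytic list thus moved both ways in each comparison, as did all tested genes. Of all genes 32.5%, 37.4% and 33.3% fell and 27.1%, 29.5% and 25.8% rose in WT cord. In KO cord 27.3%, 38.8% and 31.0% fell and 23.7%, 30.9% and 23.5% rose. Called members were nearly all lower.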

How the data were processed

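Total RNA from spinal cord was extracted with Trizol and hybridised as biotinylated cRNA, per the labels' protocols. The values analysed are log2 probe set signals as deposited, made by the authors with GCRMA per the submitters' processing notes (version not given in the sources used here). The files name no genome build. Of 45101 probe sets, 34945 name 1 gene, 932 several and 9160 none, and 64 are controls; only those naming 1 gene were tested. The number of arrays per group, 4 or 5, limits the precision. No arrays held identical values.

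Groups were taken from the labels. Differences were fitted with limma 3.58.1 (lmFit, eBayes; R 4.3.3) over all 8 groups and all 11993 genes above log2 4 on at least 4 arrays, with Benjamini-Hochberg adjustment over those genes and a threshold of 0.05. The fit was checked on simulated data. Days were compared on the mean of both genotypes, and genotype by interaction terms. In the text, "rose" and "fell" mark values past the threshold, and errors of differences are SE.

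Members and companion lists were chosen with earlier results of these data known. Genes named were the largest called rises and falls per comparison (up to 4 each, or 3 between days), the smallest p in genotype comparisons, central subunits, paired isoforms, members with probe sets called in opposite directions, and up to 3 genes per companion list; genes outside this were named after their values were seen, to complete a group. Alternatives were: no filter, the mean of a gene's probe sets, array centring, a floor at 4, a replicate block, the compared groups alone, each array left out, and, chosen after seeing the data, leaving out 3 arrays with high muscle markers and the muscle marker mean as covariate.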

Additional observations from a re-analysis of the deposited data

Results flagged for a closer look

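Of 264 sets of group values checked, 16 had a highest or lowest array far from the others by Dixon's criterion; chance alone flags about 5% of such sets. The median of complex I on KO day 7 replicate 1 was 11.90, below 12.03 to 12.05 on the other arrays, and Ndufv1, which is that median, read 11.90 there too. Cox5a was low on WT day 1 replicate 1, at 13.89 against 14.09 to 14.17, and on KO day 3 replicate 4, at 13.88 against 14.03 to 14.09. Cox6b1 was high on WT day 7 replicate 2, at 14.16 against 14.06 to 14.07, and Cox7a2 on WT sham replicate 4, at 13.92 against 13.75 to 13.77. Atp5g1 was high on KO day 3 replicate 3, at 11.51 against 11.09 to 11.19, and Atp5g3 on WT sham replicate 3, at 13.88 against 13.79 to 13.80.

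The restricted forms of complex IV gave the other 8. Cox6a2 was high on WT day 1 replicate 2, at 4.59 against 3.58 to 3.73, and on WT day 3 replicate 4, at 5.04 against 4.07 to 4.13. Cox8b was high on WT day 1 replicate 2, at 4.27 against 2.44 to 2.47. The muscle marker mean on these arrays was 7.47 and 8.05, each the highest of its group. Cox7a1 was low on WT day 3 replicate 2, at 5.36 against 7.23 to 7.57, and high on KO day 3 replicate 3, at 9.81 against 7.20 to 7.78. Cox6b2 was high on WT day 1 replicate 2, at 3.82 against 3.32 to 3.42, and on KO day 3 replicate 4, at 5.15 against 3.82 to 4.17, and low on KO day 7 replicate 3, at 5.14 against 5.82 to 5.89. The causes were not tested.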

How the results depend on the processing

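Over the alternatives run, the number of members called in each injury comparison kept its direction and stayed within 1.5 times the main count. Leaving out 1 array at a time gave 63 to 69, 62 to 66 and 67 to 75 calls in WT cord on days 1, 3 and 7, and 40 to 61, 66 to 69 and 72 to 76 in KO cord. Counts of rises, 3 at most, ranged from 0 to 2 on day 1 in both genotypes and from 1 to 4 on KO day 3. The KO minus WT count on day 1 went from 0 to 1 only without WT day 1 replicate 5. Counting subunits alone, without assembly factors, moved the complex I median to 12.66, 12.40, 12.36 and 12.35 in WT cord (sham and days 1, 3 and 7) and to 12.70, 12.52, 12.37 and 12.32 in KO cord. Reversed values were the Cox8b interaction on day 7 with the muscle covariate (0.36), and, on averaging a gene's probe sets, Atp5g1 between days 3 and 7 (0.02) and Atp5c1 on WT day 7 (0.12); the cause was not tested. With the replicate block 66, 63 and 68 members fell in WT cord and 52, 66 and 74 in KO cord; between days 3 and 7, 8 rose and 12 fell. Same-numbered arrays did not deviate together at the median (r of 0, 0, -0.04 and 0.01 for numbers 1 to 4). Single pairs ranged from -0.51 to 0.56, so the check cannot exclude a pairing among some groups. Of 6660 values for single named genes under alternatives, 6565 kept direction and side of the threshold, 91 lost the call, 1 gained it and 3 reversed. Calls lost without some single arrays include the day 1 rises of Ndufaf4 (0.17 to 0.24 in WT, 0.21 to 0.28 in KO cord). Others are the WT day 7 rise of Atp5g2 (0.19 to 0.31) and the KO day 3 rise of Atp5e (0.10 to 0.20). The KO day 3 rise of Ndufa7 (0.12 to 0.19) and day 1 falls of Sdhb, Cox6a1 (WT), Cox4i1 and Cox6b1 (KO) were also lost. For Cox6a1 on WT day 1 the call was lost in 26 of 34 such runs. Ndufb8 on KO day 3 became -0.10 when averaged with a probe set never above 4. Members that differ by about their SE, 0.06 at the median, could not be called at this number of arrays.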

Other observations

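Probe sets that name several genes were left out of the tests. Of 10 such sets among the members' symbols, 4 were above 4 on 0 arrays, and values of 3 of the others follow. The Ndufa11 and Ndufa11b probe set read 11.82 ± 0.11 in WT sham cord and 11.52 ± 0.05, 11.40 ± 0.02 and 11.35 ± 0.12 on days 1, 3 and 7 (SD, n = 4, 5, 4 and 4). The probe set shared by Ndufb4 and its copies read 12.35, 12.05, 11.91 and 11.99 in WT cord and 12.44, 12.12, 12.02 and 12.08 in KO cord. The Ndufs6 and Ndufs6b probe set read 12.09, 11.85, 11.81 and 11.76 in WT cord and, in KO cord, 12.17 in sham and 11.78 on day 7.

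Of 14 genes on a list of hypoxia-induced genes, 3, 4 and 3 rose in WT and 2, 4 and 3 in KO cord, while 5, 5 and 5 and 5, 4 and 4 fell. The falls were 35.7% of the list on WT day 1 and on WT day 3, against 32.5% and 37.4% of all genes. Pdk1, the kinase that inactivates pyruvate dehydrogenase, rose by 0.90 on WT day 3 and by 1.02 on WT day 7. Vegfa fell by 0.88 and by 0.92 on those days, and Bnip3, a mitophagy receptor, by 0.61 and by 0.56. Of 11 pericyte and smooth muscle markers, 4, 9 and 6 rose in WT and 2, 6 and 3 in KO cord. Of all genes, 27.1%, 29.5% and 25.8% rose in WT and 23.7%, 30.9% and 23.5% in KO cord. The pericyte rises were below that share on KO day 1 and close to it on KO day 7. Of 2 tested brown adipocyte markers, Cidea fell by 1.81 on WT day 1 and Fabp4 rose by 2.44 on WT day 3. Among the muscle markers Tnni1, a slow troponin, rose by 1.42 on WT day 1, and Pvalb, also a marker of neurons, fell by 1.31 on WT day 3.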
